A study of Mus musculus with 2 samples.

Results

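The genes described here are the synucleins Sncb and Sncg, and Park7, Uchl1, Pink1, Lrrk2 and Vps35, which human genetics or biochemistry ties to Parkinson disease, 7 in all. They were chosen by symbol in the transcript tables and joined by gene identifier to the gene tables. All 7 were found among 55536 gene rows. The tissue was left cerebral cortex from mice of strain B6NCrl, a C57BL/6 substrain, at an age of 6 months. One label field calls the tissue male and another gives the sex as not collected. No treatment, transgene or disease model is given in the labels. Poly(A)+ RNA libraries were made from 20 ng of RNA by Nextera tagmentation (a transposase fragments cDNA and adds adapters). The labels gave 1 group with 2 libraries, biological replicates 1 and 2. These have separate biosample records and share a donor entry, so whether 2 animals were used rests on the replicate labels, and the spread below is that between these libraries, which may be technical.

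Synucleins are small proteins enriched at presynaptic terminals, and aggregates of one family member fill the Lewy bodies of Parkinson disease. The other genes act in pathways that neurons use to keep proteins and mitochondria in order. Pink1 encodes a kinase that builds up on depolarised mitochondria and marks them for removal by mitophagy. Park7 (DJ-1) protects cells from oxidative stress. Uchl1 is an abundant neuronal ubiquitin hydrolase, Lrrk2 is a large kinase that phosphorylates Rab GTPases, and Vps35 is the core subunit of retromer, which recycles membrane cargo from endosomes.

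Uchl1 was the highest of the 7 genes and Sncg the lowest. Levels are in TPM, the deposited transcript abundance scaled to a fixed sum in each library. TPM values are per length and can be set between genes, as mean ± SD over n = 2 libraries. Uchl1 stood at 1012 ± 5.19 TPM, Park7 at 427.4 ± 49.2, Pink1 at 226.2 ± 162.1, Sncb at 105.3 ± 91.0, Vps35 at 66.72 ± 16.82, Lrrk2 at 11.23 ± 3.69 and Sncg at 3.91 ± 1.23. Across the libraries the values of Pink1 overlapped those of Sncb, and those of Sncb overlapped Vps35. Within each library Pink1 was above Sncb. Sncb stood at 3.09 times the level of Vps35 in replicate 1 and at 0.521 times in replicate 2, so their order is not settled. The other neighbours did not overlap, in the gene tables or in the second transcript tables, which hold the authors' second quantification of the same libraries. No test of these orders was made. In bulk tissue, fewer cells of a type and less RNA per cell cannot be told apart.

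**Figure D1:**
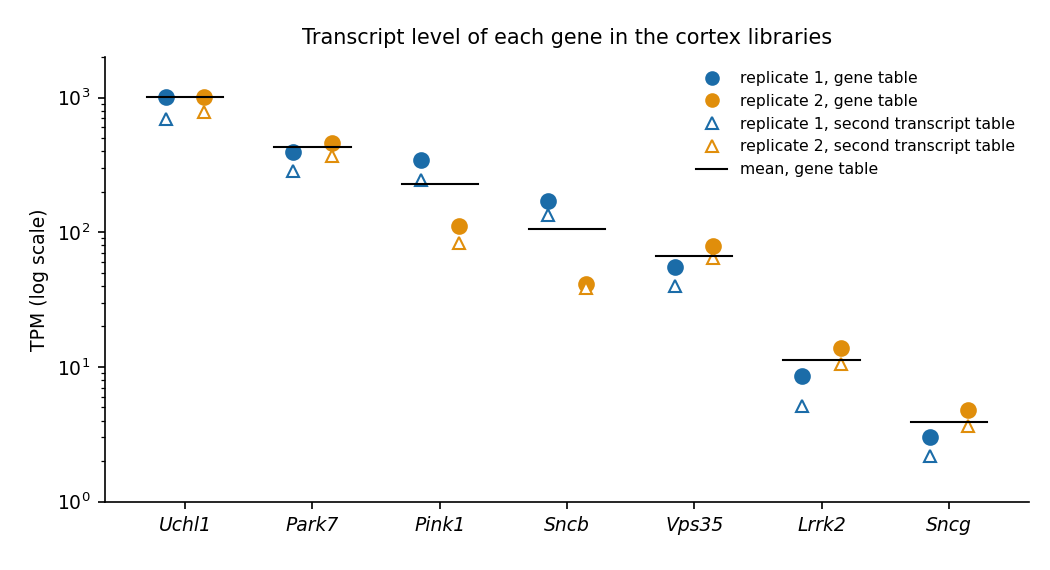
Level of each gene in TPM on a log axis, with replicate 1 left of replicate 2. Filled circles are the gene tables, open triangles the second transcript tables, and lines the mean of the gene tables. Pink1 and Sncb are spread most widely, and Uchl1 stands at 1009 TPM in replicate 1 and 1016 TPM in replicate 2.

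Sncb (beta-synuclein; ENSMUSG00000034891.13, chr13:54758860-54766595, minus strand) had 169.67 TPM in replicate 1 and 40.97 TPM in replicate 2. Its rank among 22028 protein coding genes was 831 in replicate 1 and 3058 in replicate 2. Sncg (gamma-synuclein, known from peripheral and some central neurons; ENSMUSG00000023064.4, chr14:34370274-34374789, minus strand) had 3.04 TPM in replicate 1 and 4.78 TPM in replicate 2. The synucleins therefore moved in opposite directions between the libraries. The level of Sncb was 55.8 times that of Sncg in replicate 1 and 8.57 times in replicate 2. Sncg rested on 84 fragments in replicate 1 and 71 in replicate 2, the fewest of the 7 genes. The TPM intervals in the authors' deposited tables, whose level is not stated there, ran for Sncg from 2.36 to 3.62 in replicate 1 and from 3.57 to 5.68 in replicate 2, so they met at their edges.

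The synucleins are related in sequence, and their reads could in principle be shared. The first 120 coding bases of each are shown for that reason, on mm10, from the GENCODE M21 transcripts. Capitals mark positions with the same base in both, which were 96 of 120, or 80.0 percent. Sncb covers chr13:54765564-54765683 and Sncg covers chr14:34374461-34374580, both on the minus strand.
Sncb-201: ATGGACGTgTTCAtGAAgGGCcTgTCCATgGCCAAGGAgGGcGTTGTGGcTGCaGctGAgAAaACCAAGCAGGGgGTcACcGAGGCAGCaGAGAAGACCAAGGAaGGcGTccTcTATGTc
Sncg-201: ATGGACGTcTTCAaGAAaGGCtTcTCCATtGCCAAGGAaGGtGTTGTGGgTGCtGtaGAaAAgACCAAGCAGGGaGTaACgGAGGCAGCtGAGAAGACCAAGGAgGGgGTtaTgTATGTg
The differences are scattered through the stretch, so no run of 31 bases is common to the transcripts. Every 31-base word of Sncg-201 occurred in no other annotated transcript, and every word of the Sncb transcripts occurred in that gene only. Their fragments could thus be told apart by sequence.

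Uchl1 (ENSMUSG00000029223.12, chr5:66676091-66687234, plus strand) was the highest and the steadiest of the genes. It had 1008.64 TPM in replicate 1 and 1015.98 TPM in replicate 2, and ranked 130 among protein coding genes in replicate 1 and 146 in replicate 2. Park7 (ENSMUSG00000028964.14, chr4:150897133-150914437, minus strand) had 392.62 TPM in replicate 1 and 462.22 TPM in replicate 2. Uchl1 stood at 2.57 times the level of Park7 in replicate 1 and at 2.20 times in replicate 2.

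Pink1 (ENSMUSG00000028756.12, chr4:138313409-138326307, minus strand) had 340.87 TPM in replicate 1 and 111.60 TPM in replicate 2. Its rank among protein coding genes was 412 in replicate 1 and 1292 in replicate 2. Pink1 and Park7 were near each other in replicate 1, with Pink1 at 0.868 of the Park7 level, against 0.241 in replicate 2. Vps35 (ENSMUSG00000031696.9, chr8:85260392-85299802, minus strand) had 54.83 TPM in replicate 1 and 78.62 TPM in replicate 2. Lrrk2 (ENSMUSG00000036273.15, chr15:91673175-91816120, plus strand) had 8.62 TPM in replicate 1 and 13.84 TPM in replicate 2. Park7, Vps35, Lrrk2 and Sncg were lower in replicate 1, while Pink1 and Sncb were higher there.

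For Uchl1 and Lrrk2 the level of the whole gene hid how much of it was assigned to the coding transcript. The first transcript tables give isoform percent, the share of the gene's TPM carried by each transcript. Of 33 annotated transcripts of the 7 genes, 11 reached 5 percent of their gene in at least 1 library and quantification, 22 stayed below, and 4 were at 0 in every table. For Sncg, Sncb and Park7 the main coding transcript carried nearly everything in both libraries. Sncg-201 is the only transcript of its gene, Sncb-201 held 96.98 percent in replicate 1 and 96.94 percent in replicate 2, and Park7-201 held 96.65 percent in replicate 1 and 95.84 percent in replicate 2.

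Uchl1 was split between its coding transcript and a retained-intron transcript with no annotated coding sequence. The coding Uchl1-201 (9 exons) held 45.18 percent in replicate 1 and 53.01 percent in replicate 2. Uchl1-202 held 54.14 percent in replicate 1 and 45.35 percent in replicate 2. In the second transcript tables, Uchl1-201 held 80.91 percent in replicate 1 and 81.82 percent in replicate 2. The share thus differed more between the quantifications than between the libraries. Of 6919 genes with a mean TPM of at least 10 and at least 2 transcripts, 3.14 percent had a transcript whose share differed by 20 percentage points or more between quantifications in both libraries, and Uchl1 was the only such gene among the 6 of these genes that could be counted. This limit, and the limit of 10 points below, were set after the values were seen.

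The sequences show where the Uchl1 transcripts part. Lower case marks what precedes exon 3, which is the coding part of exons 1 and 2 in Uchl1-201 and intron sequence in Uchl1-202. The whole stretches shown span chr5:66676290-66677003 with introns (Uchl1-201) and chr5:66676892-66677003 (Uchl1-202). Capitals mark the first 60 bases of exon 3, which both share.
Uchl1-201: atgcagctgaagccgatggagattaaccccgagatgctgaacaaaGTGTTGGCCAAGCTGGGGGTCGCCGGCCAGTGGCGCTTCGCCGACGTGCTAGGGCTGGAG
Uchl1-202: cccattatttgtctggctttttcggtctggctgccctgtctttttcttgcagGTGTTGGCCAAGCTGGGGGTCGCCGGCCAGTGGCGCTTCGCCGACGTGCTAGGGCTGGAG
Uchl1-202 has 52 bases before exon 3, and its other 928 of 980 bases also lie in Uchl1-201. The share of Uchl1-202 thus rests on how reads in the shared bases were assigned. Coverage along the transcripts was not examined, and the part of uneven coverage in these shares was not tested. Uchl1-201 has 244 bases before exon 3, of which only the 45 coding bases are shown. Of the 31-base words, 32 of 1147 in Uchl1-201 (2.79 percent) and 52 of 950 in Uchl1-202 (5.47 percent) occurred in no other transcript of any gene. The count for Uchl1-201 leaves out words that Uchl1-202 lacks but other transcripts hold. Only 82.39 percent of Uchl1-201 words were limited to its gene, and Uchl1 shared 237 words with the antisense gene Uchl1os. The antisense gene Uchl1os overlaps 295 exonic bases of Uchl1 and had 1 fragment in replicate 1 and 2 in replicate 2. The labels and headers do not state whether counting used strand, so reads within the shared bases cannot be assigned to one or the other gene.

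Lrrk2 was led in TPM by a short retained-intron transcript and in fragments by the long coding one. Lrrk2-206, of 812 bases, held 61.01 percent of the TPM in replicate 1 and 74.24 percent in replicate 2, and 55.67 percent in replicate 1 and 70.16 percent in replicate 2 of the second transcript tables. The coding Lrrk2-201, of 8275 bases in 51 exons, held 24.72 percent in replicate 1 and 22.57 percent in replicate 2. By fragments Lrrk2-201 held 73.40 percent in replicate 1 and 75.63 percent in replicate 2, and Lrrk2-206 held 14.48 percent in replicate 1 and 21.02 percent in replicate 2. Lrrk2-202, also without a coding sequence, held 11.10 percent in replicate 1 and 1.95 percent in replicate 2. On the main coding transcript alone Lrrk2 stood at 2.63 ± 0.70 TPM and Sncg-201 at 3.91 ± 1.23 TPM (SD, n = 2 each). By these means the lowest places in the order changed. Lrrk2-201 was below Sncg-201 within each library, at 2.13 against 3.04 TPM in replicate 1 and 3.12 against 4.78 TPM in replicate 2. Across the libraries the values overlapped, and the order was not tested.

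The start of Lrrk2-206 is shown beside the matching part of Lrrk2-201, since this is where they part. Capitals mark exon 50, of 72 bases, which both hold. Lower case marks the end of exon 49 in Lrrk2-201 and 34 bases of intron in Lrrk2-206. The whole stretches shown span chr15:91812367-91814733 with the intron (Lrrk2-201) and chr15:91814628-91814733 (Lrrk2-206), both on the plus strand.
Lrrk2-201: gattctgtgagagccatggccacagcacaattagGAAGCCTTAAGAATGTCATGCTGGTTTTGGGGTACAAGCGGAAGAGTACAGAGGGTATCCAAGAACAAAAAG
Lrrk2-206: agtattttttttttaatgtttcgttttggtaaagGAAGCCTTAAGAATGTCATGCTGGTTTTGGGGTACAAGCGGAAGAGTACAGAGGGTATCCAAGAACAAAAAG
The other 778 of 812 bases of Lrrk2-206 lie in Lrrk2-201 too. Of its 782 31-base words, 32 (4.09 percent) occurred in no other transcript. Lrrk2-206 had 137.0 fragments in replicate 1 and 144.4 in replicate 2. Its lead in TPM thus rests on how reads in the shared bases were assigned. The part of uneven coverage along the transcripts was not tested.

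Pink1 differed in its transcripts between the libraries. Pink1-201, which encodes the kinase (8 exons), held 97.58 percent in replicate 1 and 85.78 percent in replicate 2. The short Pink1-202 (3 exons at the 3′ side of the gene) held 0.06 percent in replicate 1 and 14.22 percent in replicate 2, which was 0.19 TPM in replicate 1 and 15.86 TPM in replicate 2. The second transcript tables had the same direction with a smaller gap, 0.17 percent in replicate 1 and 4.49 percent in replicate 2. Pink1-202 was therefore lower in replicate 1, opposite to its gene. Of Pink1-201, the 1208 bases outside Pink1-202 had 63.99 percent GC and the 1167 bases inside it had 53.81 percent. The part of base composition in this difference was not tested. Among the 6919 genes, 35.4 percent had a transcript that moved by 10 points or more between the libraries, and of the 6 genes counted here Pink1 and Lrrk2 did, so such a shift was common.

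**Figure D2:**
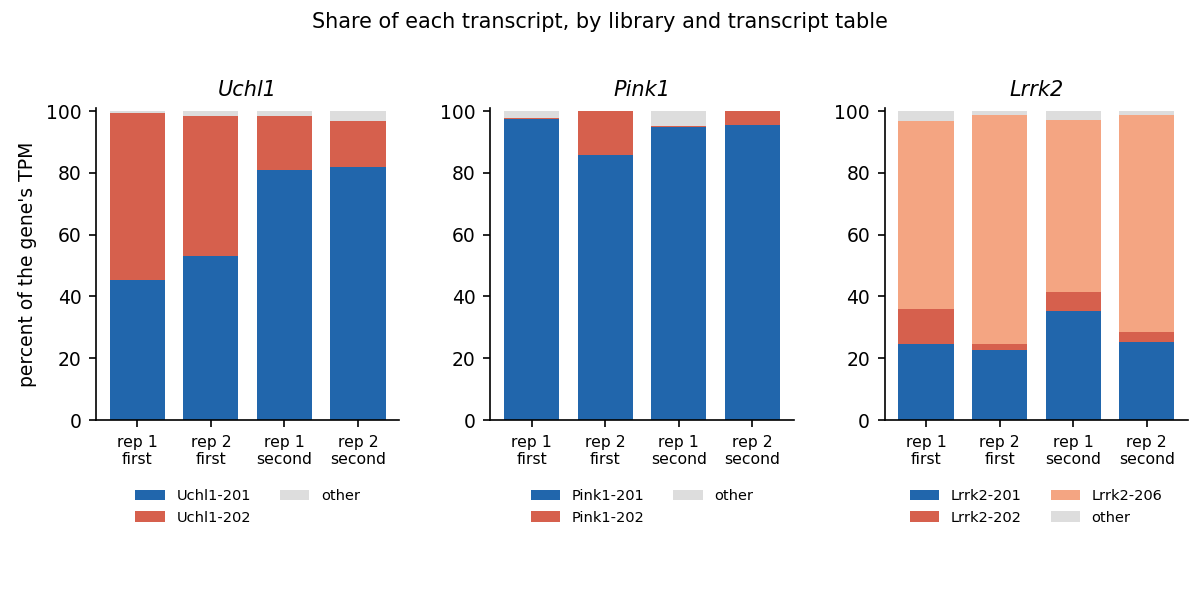
Stacked bars of the percent of the gene's TPM from each transcript of Uchl1, Pink1 and Lrrk2, for replicates 1 and 2 in the first and the second transcript tables. Transcripts under 5 percent everywhere are pooled as other. Uchl1-201 is taller in the second tables, Pink1-202 appears in replicate 2, and Lrrk2-206 leads its gene in every bar.

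The comparison that the design allows is of the 2 libraries. It asks how far the level of each gene differed between them. CPM values (fragments scaled to a common library size), taken at trimmed-mean (TMM) effective library sizes with a pseudocount of 0.5, gave a log2 ratio of replicate 1 over replicate 2, and a gene was called past 1.5-fold. With 1 library on each side there is no test. The 95 percent Clopper-Pearson intervals were computed without the pseudocount and cover counting error only. The libraries differed widely: of 14653 genes whose mean CPM reached 1, 20.1 percent were called, 16.1 percent as higher in replicate 1 and 3.97 percent as lower.

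Of the 7 genes, 2 were called, Sncb and Pink1, both higher in replicate 1. Sncb had 158.4 CPM (7970 fragments) in replicate 1 and 36.62 CPM (1011 fragments) in replicate 2. Its log2 ratio was 2.10 (interval 2.02 to 2.21), a 4.28-fold difference, and 1.72 percent of all tested genes had a larger ratio in size. Pink1 had 597.5 CPM in replicate 1 and 175.0 CPM in replicate 2, with a log2 ratio of 1.77 (1.73 to 1.82), a 3.41-fold difference, and 2.85 percent of genes had a larger one. Both therefore sat in the tail of the difference between libraries. In the second transcript tables the log2 ratios were 1.99 for Sncb and 1.77 for Pink1.

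The other 5 genes stayed inside 1.5-fold. Uchl1 had 726.4 CPM in replicate 1 and 714.6 CPM in replicate 2, a log2 ratio of 0.02 (-0.001 to 0.049; -0.06 under total count scaling), and 95.2 percent of tested genes differed more. Park7 had a log2 ratio of -0.20 (-0.24 to -0.16). Lrrk2 was at -0.40 (-0.55 to -0.26) and Vps35 at -0.43 (-0.48 to -0.38), each lower in replicate 1. Sncg was at -0.50 (-1.10 to -0.15), from 1.67 CPM in replicate 1 and 2.57 CPM in replicate 2. Its interval ran past 1.5-fold, and with no pseudocount its log2 ratio was -0.62, which would be called. Over all tested genes the median log2 ratio was -0.003 and the median size 0.26.

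**Figure D3:**
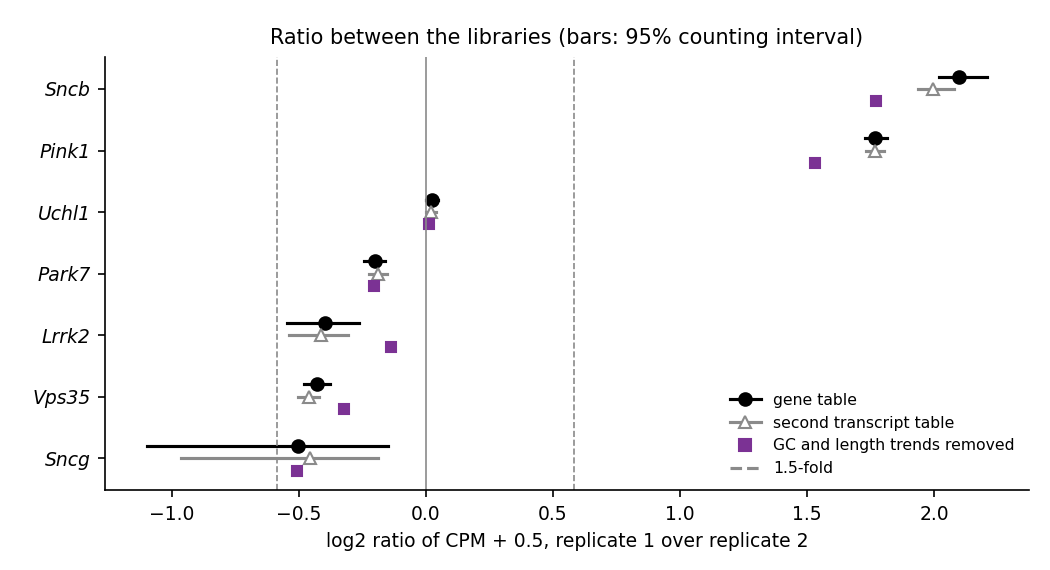
Log2 ratio of replicate 1 over replicate 2 for each gene, from the gene tables (black, with 95 percent counting intervals), from the second transcript tables (grey, with intervals) and after removal of the GC and length trends (purple). Dashed lines mark 1.5-fold. Sncb and Pink1 lie to the right of the line in all 3, and the other genes lie inside it.

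Base composition was set beside the difference between libraries. Its part in that difference was not tested, since the trend below joins GC content and length. Sncb transcripts had 61.3 percent GC, and 2.74 percent of tested genes had more, while Pink1 transcripts had 58.77 percent, and 8.80 percent of genes had more. Across tested genes the median was 50.8 percent. The trend on GC content and length, fitted over all genes, had a value of 0.33 in log2 units at the place of Sncb and 0.24 at that of Pink1. With the trend removed, Sncb stood at 1.77 and Pink1 at 1.53, both still called. Uchl1, Park7 and Sncg had 56.45, 56.50 and 56.57 percent GC and trend values of 0.01, 0.004 and 0.003. Lrrk2, weighted by TPM, had 33.44 percent, with 28.45 percent in Lrrk2-206 and 45.46 percent in Lrrk2-201, and its log2 ratio was -0.14 with the trend removed.

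**Figure D4:**
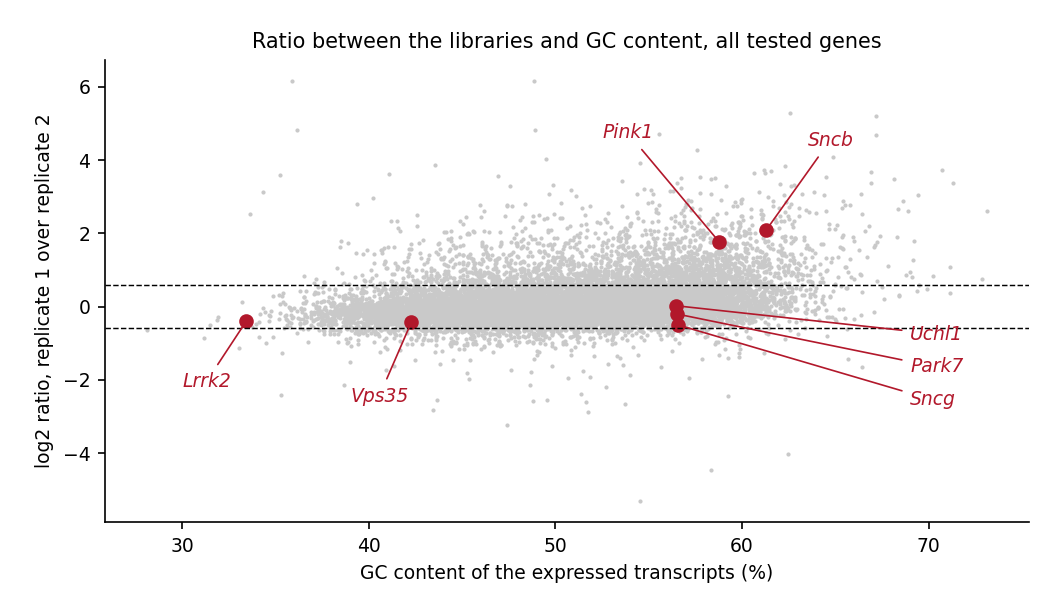
Log2 ratio of replicate 1 over replicate 2 against GC content in percent, weighted by transcript TPM, for 14642 tested genes (grey) with the 7 genes in red. Dashed lines mark 1.5-fold. Sncb and Pink1 lie above the line at high GC, and Uchl1, Park7 and Sncg lie between the lines at 56.45 to 56.57 percent GC.

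The second quantification gave lower TPM for all 7 genes in both libraries. The log2 ratio of gene table over second transcript table ran from 0.33 (Sncb) to 0.75 (Lrrk2) in replicate 1 and from 0.09 (Sncb) to 0.43 (Pink1) in replicate 2. Over genes with a mean TPM of at least 5 the median was 0.40 in replicate 1 and 0.28 in replicate 2. Sncb lay below this median and the other 6 genes above it in both libraries, though Sncg is itself outside that set. None of the 7 passed 2-fold in both libraries. Of 10102 genes with a mean TPM of at least 5, a set that leaves out Sncg and holds the other 6, 1.76 percent did. The DNA replication gene Orc6 overlaps 171 exonic bases of Vps35 on the other strand and had 1621 fragments in replicate 1 and 916 in replicate 2.

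For each gene the protein coding gene with the most similar levels was found, by distance in log2 TPM over the 2 libraries. With 2 values a gene this likeness describes level only. It was Retreg2, an endoplasmic reticulum protein gene, for Sncb, with 170.42 TPM in replicate 1 and 42.22 TPM in replicate 2. It was Mt3, a brain metallothionein, for Uchl1, Pmm1, a phosphomannomutase, for Park7, and Psmd1, a proteasome subunit, for Vps35. Lrrk2 was nearest to Zfp955b and Sncg to A130010J15Rik. Pink1 had the most distant neighbour, Lars2, the mitochondrial leucyl-tRNA synthetase, with 284.45 TPM in replicate 1 and 101.46 TPM in replicate 2. Its distance was 0.29, against 0.044 or less for the others.

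Genes that work with the 7 were taken from 7 lists holding 92 genes, of which 91 were tested. Of these, 16 were called higher in replicate 1 and 1 lower, with a median log2 ratio of -0.03, set against 16.1 and 3.97 percent and a median of -0.003 for all genes. The count of higher calls was near the background. Every list except ubiquitin had at least 1 gene called.

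Mitophagy genes, the partners of Pink1, had 3 of 23 called higher in replicate 1 and none lower (median log2 ratio -0.15). Mfn1, a mitofusin of the outer membrane, had 18 TPM in replicate 1 and 4.56 TPM in replicate 2, a log2 ratio of 1.76. Tomm70a, an import receptor, was at 1.46, and Usp30, a mitochondrial deubiquitinase, at 0.88. The most abundant, the channel Vdac1, was not called, with 392.41 TPM in replicate 1 and 481.94 TPM in replicate 2, and Rhot2, which tethers mitochondria to motors, was the lowest at 6.25 ± 0.36 TPM (SD, n = 2).

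Genes of the response to oxidative stress had 4 of 8 called higher in replicate 1 and none lower (median log2 ratio 0.39). The shares among all tested genes were 16.1 percent higher and 3.97 percent lower, and a list of 8 genes is small. With a pseudocount of 5 CPM the higher calls were 2. Gclm, the modifier subunit of glutathione synthesis, had 99.72 TPM in replicate 1 and 25.83 TPM in replicate 2, a log2 ratio of 1.77. Hmox1, a haem oxygenase, was at 1.01 and the lowest of the list at 2.36 ± 1.27 TPM (SD, n = 2), and Txnrd1, a thioredoxin reductase, was at 0.98. Ubiquitin genes, beside Uchl1, had none of 9 called, with a median of -0.06, and 1 was called lower under total count scaling. Bap1, a nuclear deubiquitinase, was the lowest of the list at 65.34 ± 2.07 TPM (SD, n = 2).

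Retromer, sorting nexin and WASH genes, the partners of Vps35, had 3 of 14 called higher in replicate 1 and none lower (median log2 ratio 0.04). Washc1 was at 1.14 and Washc5 at 0.61, both subunits of the WASH complex that builds actin on endosomes, and Snx27, a cargo adaptor, at 0.90. Snx3, an adaptor of retromer, was the highest at 426.4 ± 13.4 TPM (SD, n = 2). Rab genes and other partners of Lrrk2 had 2 of 14 called higher and none lower (median 0.16), and 1 was higher with a pseudocount of 5 CPM. Rab10, a substrate of the kinase, had 71.46 TPM in replicate 1 and 23.55 TPM in replicate 2, a log2 ratio of 1.69, and Rab43 was at 0.98. The highest of that list, the synaptic vesicle GTPase Rab3a, was at 0.57 and not called, and the relative Lrrk1 had 0.40 TPM in replicate 1 and 0.44 TPM in replicate 2.

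Presynaptic proteins, beside the synucleins, had 2 of 7 called higher in replicate 1 and none lower (median log2 ratio 0.02). Vamp2, a vesicle SNARE, had 667.23 TPM in replicate 1 and 263.83 TPM in replicate 2, a log2 ratio of 1.43, and Syn1, a vesicle phosphoprotein, was at 1.23. The chaperone Hspa8 was the highest at 2960 ± 709 TPM and Dnajc5 the lowest at 99.36 ± 8.86 TPM (SD, n = 2 each), and neither was called. Other genes of inherited parkinsonism or its risk loci had 2 of 16 called higher, Eif4g1 at 0.73 and Gak at 0.69, and 1 lower, Spr, an enzyme of tetrahydrobiopterin synthesis, at -0.86. Chchd2, a mitochondrial protein gene, was the highest of these at 1532 ± 47 TPM (SD, n = 2). Gch1, which starts tetrahydrobiopterin synthesis, was the lowest, with 0.48 TPM in replicate 1 and 0.41 TPM in replicate 2, too low to be compared.

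**Figure D5:**
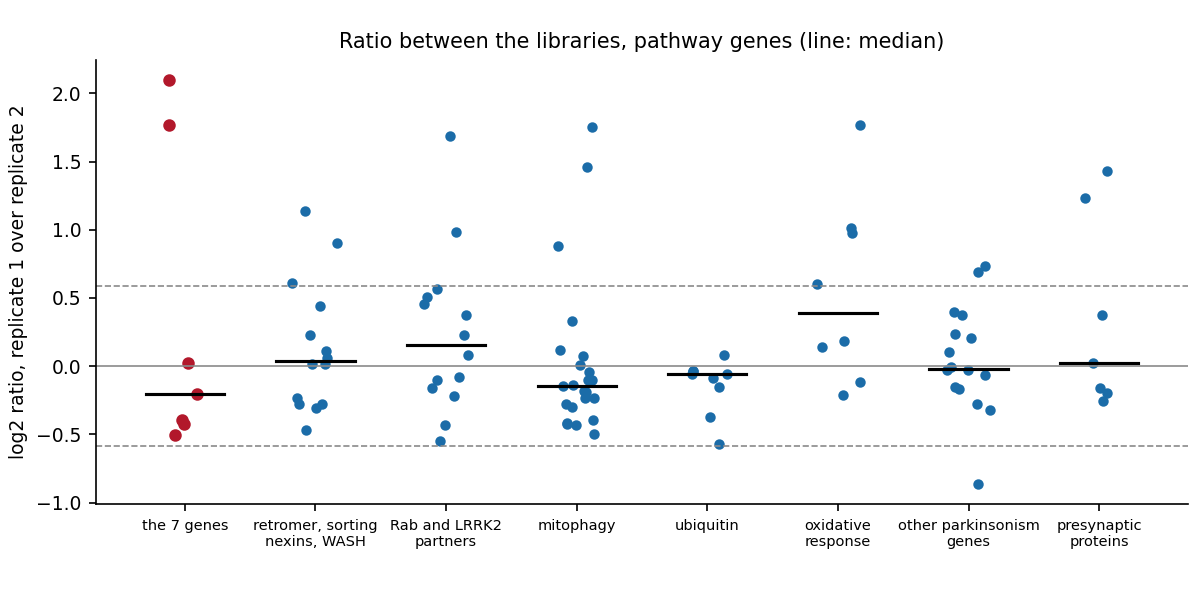
Log2 ratio of replicate 1 over replicate 2 for the 7 genes (red) and the tested genes of each pathway list (blue), each point a gene and each black line a list median. Dashed lines mark 1.5-fold. Most points lie inside the lines, and those outside are nearly all higher in replicate 1.

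The tissue label was checked against marker lists. Neuron markers (5 of 5 at 1 TPM or more) summed to 3704 TPM in replicate 1 and 3989 TPM in replicate 2, and excitatory neuron markers (5 of 5) to 991 TPM in replicate 1 and 1172 TPM in replicate 2. Most of the excitatory sum was Camk2a, with 847.62 TPM in replicate 1 and 1082.83 TPM in replicate 2. Of the neuron list 1 of 5 genes, Rbfox3, was called higher in replicate 1. Of the excitatory list 2 of 5 were called higher there, Slc17a7 and Tbr1, opposite to the sum. Interneuron markers summed to 345.3 TPM in replicate 1 and 431.2 TPM in replicate 2, with 1 of 5 called higher in replicate 1. Oligodendrocyte markers summed to 3020 TPM in replicate 1 and 3235 TPM in replicate 2, astrocyte markers to 1467 TPM in replicate 1 and 1816 TPM in replicate 2, and microglia markers to 286.7 TPM in replicate 1 and 281.6 TPM in replicate 2, with none called. Endothelial markers summed to 112.8 TPM in replicate 1 and 149.3 TPM in replicate 2, with 1 of 4 called higher in replicate 1, and choroid plexus markers to 59.62 TPM in replicate 1 and 46.43 TPM in replicate 2, with neither of the 2 tested called. Red cell markers summed to 78.25 TPM in replicate 1 and 38.96 TPM in replicate 2, with 3 of 4 tested genes called higher in replicate 1. The 3 were Hba-a1, Hba-a2 and Hbb-bt, the last with 104 fragments in replicate 1 and 31 in replicate 2. Beside all these marker counts, 16.1 percent of all tested genes were called higher in replicate 1 and 3.97 percent lower. The part of cell makeup in the Sncb and Pink1 ratios was not tested. Dopamine neurons are the cells lost in Parkinson disease, and of their 7 markers 4 reached 1 TPM in both libraries. Of the 4, Nr4a2 had 14.29 TPM in replicate 1 and 15.72 TPM in replicate 2. In the same order Slc18a2 had 3.25 and 4.34, Ddc 3.55 and 4.13, and Th 2.67 and 2.47 TPM. The 7 markers summed to 23.85 TPM in replicate 1 and 27.0 TPM in replicate 2. Slc6a3 (the dopamine transporter) and Pitx3 were below 1 TPM, and En1 was at 0. The levels above are those of tissue labelled as cortex.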

How the data were processed

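Expected counts, TPM and isoform percent of the gene and first transcript tables were computed by the authors, per the file headers, as were the estimated counts and TPM of the second transcript tables. All are on mm10 with GENCODE M21. The layouts are those of RSEM and kallisto, and neither labels nor headers name the tools, their versions or any use of strand. Expected counts were deposited without normalization and were rounded to whole numbers for intervals. Genes held 51888490 fragments (replicate 1) and 26776276 (replicate 2). Rows with numeric names (26248) and spike-ins (97) were left out, with 1.73e-05 percent of fragments in replicate 1 and 3.35e-05 percent in replicate 2.

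The 7 genes and the lists were chosen with earlier results of these data known. Beside the 7 genes, the text names the highest and lowest gene of each pathway list and up to 3 called genes with the largest ratio. Also named are the nearest gene in level for each of the 7, transcripts that reached 5 percent of their gene, and some cell type markers. Some items under this rule are not reported here. Scaling used TMM (edgeR 4.0.16, R 4.3.3), or DESeq2 1.42.0 size factors as an alternative. Trends were lowess fits at a fraction of 0.3 (statsmodels 0.14.6) on TPM-weighted transcript GC content and length. Words of 31 bases were compared over all annotated transcripts, and sequences come from the GENCODE M21 transcripts. The ratio and interval code was tested on simulated data. With 1 group of 2 libraries, 1 on each side of the comparison, no test was made.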

Additional observations from a re-analysis of the deposited data

How the results depend on the processing

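Ratios of the 7 genes between the libraries kept their side of 1.5-fold under total count scaling, DESeq2 size factors, other filters on low counts, a pseudocount of 5 CPM, the second transcript tables and removal of GC and length trends, where they could be computed. Sncg was too low to be compared under a minimum mean of 5 CPM. Uchl1, near 0, changed direction under total count scaling (-0.064), and the direction of the other 6 held in these settings. With no pseudocount, chosen after seeing the data, Sncg was at -0.62, which made 1 of the 7 genes called lower in replicate 1, against 0. Levels moved by more than the spread in the second transcript tables for Park7 (327.0 TPM) and Uchl1 (741.1 TPM), and for Uchl1 with TPM rescaled to nuclear genes (1123 TPM). Main coding transcript shares moved in the second transcript tables to 96.48 percent for Sncb-201, 81.37 percent for Uchl1-201 and 30.22 percent for Lrrk2-201. Pathway genes lower in replicate 1 numbered 4 under total count scaling and 2 with GC and length trends removed, against 1. Under total count scaling the mitophagy, ubiquitin and Lrrk2 partner lists each had 1 gene lower, against 0. With trends removed the Lrrk2 partner list had 1. Oxidative stress genes higher in replicate 1 numbered 2 with a pseudocount of 5 CPM, added after seeing the data, and 3 under total count scaling, a minimum mean of 5 CPM, the second transcript tables and trend removal, against 4. List medians near 0 changed sign for retromer (-0.05) and presynaptic genes (-0.07) under total count scaling, for presynaptic genes with trends removed (-0.02), and for other parkinsonism genes with no filter (0.03) and in the second transcript tables (0.05), and so did the median over all lists with no filter (0.01). The cause of these moves was not tested. Leaving out a library gives no ratio between libraries. No paired analysis was possible because there is 1 group. The 84 fragments of Sncg in replicate 1 and 71 in replicate 2 limit its ratio.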
